A study of Mus musculus with 22 samples.

Results

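Granule cells of the dentate gyrus and granule cells of the cerebellum are 2 small, densely packed, glutamatergic neuron types that share a name and a shape but arise in the forebrain and in the hindbrain. Their ribosome-bound mRNAs were compared here directly, gene by gene and transcript by transcript, in 3 libraries of each. These 6 libraries are all those of both cell types labelled batch 1, out of 22 libraries in the whole series. The series also holds layer V cortical neurons, inhibitory interneurons, astrocytes and microglia. The question the comparison addresses is which genes carry the regional identity of each granule cell, and which were not called.

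All mice were 6 weeks old and carried 1 copy of the RiboTag allele (Rpl22 Fl/+), in which Cre recombinase switches the ribosomal protein RPL22 to a form with an HA tag, so that the ribosomes of Cre-positive cells and the mRNA on them can be pulled down with an antibody. Dentate gyrus granule cells were tagged with the KL100Gsat line of Rbp4-Cre and taken from hippocampus, cerebellar granule cells with Gabra6-Cre (B6.Tg(Gabra6-Cre)B1Lfr) and taken from cerebellum, and Cre came from the father. Replicates 1, 2 and 3 were female, female and male for the dentate gyrus and female, male and male for the cerebellum, and p-values measure the spread between these samples. Each granule cell type therefore came with its own Cre line, its own tissue and its own dissection. These cannot be told apart from the cell type. The pulldown takes every tagged cell of the tissue, and no cells were sorted. Libraries of 3 other cell types stand beside these below. Interneurons were tagged with Dlx6a-Cre in pooled hippocampi, and layer V neurons and astrocytes came from cortex. The methods text of the study lists 1 Rbp4-Cre line and names no line for layer V neurons, which may share it with the dentate libraries. The inducible Aldh1l1-Cre line of the astrocytes was switched on with tamoxifen from 3 weeks of age. Replicates 1, 2 and 3 were female, female and male for layer V neurons and female, male and male for astrocytes. Interneuron replicates 1 and 2 pooled both sexes, and replicate 3 was male.

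Dentate granule cells receive cortical input through the perforant path, fire sparsely and send mossy fibre axons to CA3. Their fate depends on the homeobox factor PROX1, and new ones are added in adult life. Cerebellar granule cells derive from Atoh1-expressing progenitors of the rhombic lip, receive mossy fibres on a few short dendrites, lie under tonic inhibition through GABA-A receptors that hold the alpha 6 subunit, and send parallel fibres to Purkinje cells.

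Total estimated counts ranged from 38270477 to 66185898 a library. Levels below are TPM (transcript abundance corrected for length and scaled to the same total in every library), summed over the transcripts of a gene, and are given for replicates 1, 2 and 3 in that order. Where values stand as one set against another, the first set is that of the cell type in which the gene was higher. Differences are fitted log2 fold changes of the counts, dentate over cerebellar, so that a positive value is higher in the dentate gyrus, with standard errors (SE) and p-values from edgeR's quasi-likelihood test adjusted by the Benjamini-Hochberg method over all genes tested. A gene was called when its adjusted p was at most 0.05 and its fold at least 2. Libraries of 1 cell type correlated at 0.989 to 0.993 and libraries of different cell types at 0.837 to 0.845 (Pearson's r over genes, which are not independent replicates). Dentate replicate 1 stood apart in that 5 short or ribosomal RNA-like transcripts took 17.1% of its TPM against 6.52 to 9.70% in the other 5 libraries, which lowers the TPM of its other genes. The fitted folds do not use TPM, and 3 of the 7944 called genes had mean TPM that differed the other way.

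Of 18684 genes tested, 5064 (27.1%) were higher in dentate granule cells and 2880 (15.4%) were higher in cerebellar granule cells, while 10740 were not called. Without dentate replicate 1, and with the same genes tested, 4882 and 2875 were called. The median log2 fold change over all genes tested was 0.075. With so many genes called, the number called in each gene list below is to be read against these percentages.

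**Figure D1:**
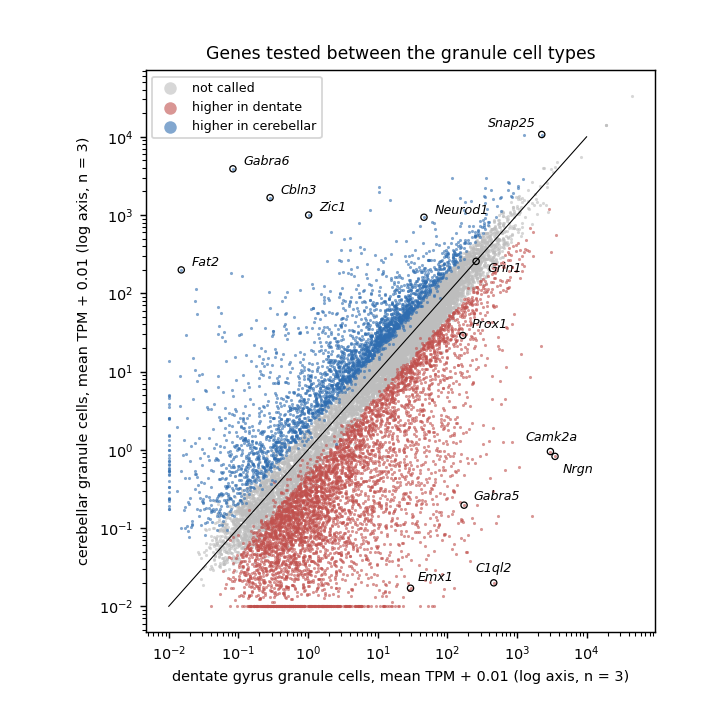
Mean TPM of each gene tested in dentate granule cells (horizontal) and cerebellar granule cells (vertical), both on log axes after adding 0.01, with genes called higher in the dentate gyrus in red, higher in the cerebellum in blue and not called in grey. Gabra6 and C1ql2 lie near opposite corners, Prox1 lies only a few-fold off the diagonal and Grin1 lies on it.

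The defining marker of each cell type stood where its label put it. Prox1 (chr1:190118035-190170714 on GRCm38, minus strand), the homeobox gene of the dentate granule lineage, was at 170.1, 179 and 152 TPM in dentate granule cells and at 27.9, 29.1 and 29.7 TPM in cerebellar granule cells, a log2 fold change of 2.45 (SE 0.08, adjusted p = 5.3e-09). The groups did not overlap, but Prox1 was well above 0 in all 3 cerebellar libraries, and above its level in layer V neurons (0.304 to 0.585 TPM) and in interneurons (12.1 to 15.1 TPM). Gabra6 (chr11:42306437-42321072 on GRCm38, minus strand), which encodes the alpha 6 subunit of the GABA-A receptor, was at 3900, 3870 and 3916 TPM in cerebellar granule cells and at 0.0965, 0.0913 and 0.0325 TPM in dentate granule cells, a log2 fold change of -15.64 (SE 0.14, adjusted p = 7.9e-12). It was the most one-sided gene of the comparison in the cerebellar direction, and the Cre line that tagged these cells is driven from this gene's regulatory sequence. Layer V and interneuron levels are given here and below as a description with no test, and the interneuron libraries were all of batch 2.

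The promoter windows of Prox1, Gabra6 and of the most one-sided dentate gene, C1ql2, are printed because these 3 genes define the comparison. Each runs from 250 bases before to 50 bases after the RefSeq start of the gene on GRCm38.p6, 5′ to 3′ on the gene's own strand, with capitals marking matches to TTGGC (part of the motif that nuclear factor I binds, searched on both strands, so that it can also read GCCAA) and to CAGATG (an E-box, searched on both strands). C1ql2 has the window chr1:120340332-120340631 on the plus strand, Prox1 has chr1:190170778-190171077 on the minus strand, and Gabra6 has chr11:42321023-42321322 on the minus strand.
C1ql2: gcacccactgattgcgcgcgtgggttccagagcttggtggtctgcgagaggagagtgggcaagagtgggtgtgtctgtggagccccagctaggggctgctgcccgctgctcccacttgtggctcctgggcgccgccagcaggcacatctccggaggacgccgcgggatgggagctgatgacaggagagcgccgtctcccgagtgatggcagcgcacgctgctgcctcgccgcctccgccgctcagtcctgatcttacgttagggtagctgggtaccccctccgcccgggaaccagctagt
Prox1: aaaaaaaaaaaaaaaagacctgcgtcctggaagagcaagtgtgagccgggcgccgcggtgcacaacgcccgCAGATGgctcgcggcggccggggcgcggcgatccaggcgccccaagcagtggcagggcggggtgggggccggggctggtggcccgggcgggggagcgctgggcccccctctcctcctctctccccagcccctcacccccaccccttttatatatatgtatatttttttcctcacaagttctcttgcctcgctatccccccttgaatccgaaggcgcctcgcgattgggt
Gabra6: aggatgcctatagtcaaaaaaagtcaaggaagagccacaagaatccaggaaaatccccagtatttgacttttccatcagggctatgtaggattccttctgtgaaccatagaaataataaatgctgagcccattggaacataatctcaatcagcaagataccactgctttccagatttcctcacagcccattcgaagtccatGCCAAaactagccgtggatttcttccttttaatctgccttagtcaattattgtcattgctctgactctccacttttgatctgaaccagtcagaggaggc
The C1ql2 window held 23 CpG dinucleotides at 67.3% GC, that of Prox1 held 25 at 64.3% and that of Gabra6 held 2 at 42%, beside medians of 7 CpG and 52.7% GC over 32817 mouse promoter windows. Prox1 held 1 E-box and Gabra6 held 1 TTGGC match, and the C1ql2 window held neither. The RefSeq starts used for Prox1 and Gabra6 lie 113 and 21 bases from the starts of their leading transcripts. The Prox1 window lies wholly upstream of the gene span given above. TTGGC occurs in 46.7% and CAGATG in 17.2% of all promoter windows of this length.

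Of 15 markers listed for dentate granule cells, 13 were called higher in the dentate gyrus and none in the cerebellum (median log2 fold change 7.32). C1ql2, a secreted C1q-like protein of mossy fibre synapses, was at 481, 484 and 427 TPM in the dentate libraries and had 2 counts in all 3 cerebellar libraries together, a ratio of depth-scaled counts of 41300 (95% counting interval 11400 to 341000, edgeR adjusted p = 2.5e-11). Its relative C1ql3 was at 484, 528 and 489 TPM against 0.0654, 0.140 and 0.109 TPM. Dsp, the junction protein desmoplakin, was at 89.7, 89.5 and 88.0 TPM against 0.0139, 0 and 0.00557 TPM. All 3 were abundant in every dentate library and nearly empty in the cerebellar libraries. Calb1, the calcium buffer calbindin, was at 515, 583 and 511 against 22.9, 21.2 and 19.1 TPM, and Tdo2, a tryptophan dioxygenase used to mark mature dentate granule cells, was at 52.4, 51.0 and 62.1 against 2.99, 2.15 and 2.75 TPM. Plk5 and the neurotrophin gene Ntf3, also listed as dentate markers, were not called: Plk5 was at 77.7, 72.7 and 65.0 TPM in the dentate gyrus and 66.5, 67.8 and 62.3 TPM in the cerebellum, and Ntf3 was at 54.1, 52.8 and 49.2 TPM in dentate and 34.2, 30.5 and 32.9 TPM in cerebellar libraries.

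Of 15 markers listed for cerebellar granule cells, 12 were called higher in the cerebellum and none in the dentate gyrus (median -6.18). Fat2, a protocadherin, was at 198, 194 and 206 TPM in cerebellar granule cells and at 0.00460, 0.0108 and 0 TPM in dentate granule cells, a log2 fold change of -15.38 (SE 0.18, adjusted p = 2.0e-11). Cbln3, a cerebellin of granule cells, was at 1675, 1685 and 1639 TPM against 0.271, 0.246 and 0.310 TPM. Its partner Cbln1, which is secreted from parallel fibres and bridges neurexins to the delta 2 glutamate receptor, was at 2367, 2271 and 2205 TPM against 5.71, 11.1 and 14.2 TPM. Calb2, the calcium buffer calretinin, was at 1961, 1968 and 1908 TPM in the cerebellum, and its dentate values of 4.60, 24.5 and 2.18 TPM spread more than those of most genes named here. Reln, which encodes the secreted protein reelin, was at 387, 415 and 377 against 4.84, 6.78 and 5.26 TPM, and Grm4, a presynaptic metabotropic glutamate receptor, was at 499.8, 488 and 477 against 2.08, 3.12 and 4.45 TPM. The vesicular glutamate transporter gene Slc17a7 was on this list but was not called, at 872, 989 and 974 TPM in dentate and 795, 762 and 699.5 TPM in cerebellar granule cells.

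Of 12 genes listed as shared by both granule cells, 3 were higher in the dentate gyrus, 6 in the cerebellum and 3 were not called (median -0.91). The shares of all genes tested were 27.1% and 15.4%, and the dentate share of this list was close to the former. Neurod1, a basic helix-loop-helix factor that both lineages use as they differentiate, was at 44.7, 48.2 and 45.7 TPM in dentate and 954, 925 and 934 TPM in cerebellar granule cells (log2 fold change -4.40, SE 0.05, adjusted p = 1.7e-11). Gabrd, the delta subunit of extrasynaptic GABA-A receptors, was at 63.4, 63.8 and 58.0 against 371, 356 and 335 TPM, and the synaptic vesicle fusion gene Snap25 was at 2112, 2259 and 2426 against 10560, 10710 and 10690 TPM. In both genes all cerebellar libraries lay above all dentate libraries by several-fold. Nfix, a nuclear factor I gene, was at 298, 334 and 316 TPM in dentate and 493, 475 and 451 TPM in cerebellar libraries, a difference below the 2-fold threshold.

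Most transcription factors of the forebrain and hindbrain lists were higher in the granule cell of their own region. These lists were chosen with earlier results of these data known, so they are no independent test of regional identity. Of 24 listed forebrain transcription factors, 16 were called higher in dentate granule cells and 4 in cerebellar granule cells (median 4.64). Emx1 and Emx2, homeobox genes of the dorsal telencephalon, were at 27.4, 34.3 and 27.3 TPM and 15.3, 14.0 and 14.7 TPM in the dentate gyrus, and each had 1 count in the cerebellar libraries. Lhx2, a LIM homeobox gene needed to form the hippocampus, was at 48.4, 54.8 and 55.1 against 0.184, 0.0138 and 0.0333 TPM. Bcl11b (CTIP2) was at 161, 171 and 147 against 0.0983, 0.165 and 0.0845 TPM, and the LIM-only gene Lmo3 at 247, 244 and 237 against 0.143, 0.116 and 0.0601 TPM. Fezf2 was at 11.6, 15.0 and 17.4 TPM with no count in any cerebellar library, at least 268-fold higher in dentate granule cells when each empty library is set to 3 counts (edgeR adjusted p = 1.2e-07).

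Other forebrain factors were higher in the cerebellum or did not differ by 2-fold. Cux1, a cut-like homeobox gene, was at 138, 138 and 137 TPM in cerebellar and 13.8, 16.1 and 21.1 TPM in dentate granule cells, a log2 fold change of -3.23 (SE 0.10, adjusted p = 6.8e-09). Zbtb18, a transcriptional repressor, was high in both, at 1357, 1272 and 1230 TPM in the cerebellum and 501, 506 and 552 TPM in the dentate gyrus, and Zfpm2 was at 80.2, 77.1 and 75.2 TPM in cerebellar and 32.2, 31.6 and 28.0 TPM in dentate libraries. Cux2, the last of the 4, was at 18.0, 15.4 and 14.4 TPM in cerebellar and 3.43, 3.49 and 9.56 TPM in dentate libraries. Neurod2, a helix-loop-helix factor of mature excitatory neurons, was not called, at 335, 388 and 309 TPM in the dentate gyrus and 248, 257 and 226 TPM in the cerebellum, nor was Satb1 at 16.8, 20.9 and 30.3 TPM in dentate and 17.9, 17.6 and 17.1 TPM in cerebellar libraries.

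Of 24 listed hindbrain and cerebellar transcription factors, 22 could be tested, and 16 of these were higher in cerebellar granule cells and 2 in dentate granule cells (median -6.84). Zic1 (chr9:91358058-91365810 on GRCm38, minus strand), a zinc finger gene of the dorsal neural tube and cerebellum, was the most abundant of them at 1030, 1008 and 974 TPM against 1.05, 0.756 and 1.21 TPM in the dentate libraries (log2 fold change -10.35, SE 0.11, adjusted p = 1.9e-11). Zic2 was at 627, 633 and 552 against 2.29, 2.90 and 1.24 TPM, and Zic4 and Zic5 were called in the same direction. The engrailed gene En2, which patterns the midbrain and cerebellum, was at 189, 187 and 172 against 0.0504, 0.0464 and 0.111 TPM, and En1 at 8.86, 8.85 and 8.34 TPM with 1 count in the dentate libraries. Barhl2 was at 118, 116 and 109 TPM and had 2 dentate counts, a ratio of depth-scaled counts of 9330 (95% counting interval 2580 to 77000, edgeR adjusted p = 2.0e-11). Barhl1 was at 33.5, 29.6 and 27.4 against 0.0140, 0.0780 and 0.0302 TPM, and Pax6, a paired-box gene of rhombic lip progenitors and their granule cells, at 252, 268 and 254 against 1.66, 2.10 and 1.86 TPM. Etv1, an ETS factor, was present in both cells at 712, 726 and 745 TPM in the cerebellum and 33.5, 45.5 and 44.0 TPM in the dentate gyrus (log2 fold change -4.44, SE 0.07, adjusted p = 9.3e-11).

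Nuclear factor I genes, which drive granule cell maturation in the cerebellum, were expressed in both cell types. Nfia was higher in cerebellar granule cells at 94.4, 88.1 and 86.3 against 26.9, 26.6 and 26.1 TPM (log2 fold change -1.83, SE 0.05, adjusted p = 2.0e-09), whereas Nfib was at 159, 175 and 157 TPM in the dentate gyrus and 146, 151 and 149 TPM in the cerebellum, with a log2 fold change of -0.04 (SE 0.04, adjusted p = 0.47). The 2 hindbrain-list genes called higher in the dentate gyrus were Insm1, at 1.02, 1.95 and 2.41 against 0.413, 0.244 and 0.201 TPM, and Meis2, at 7.27, 12.6 and 25.9 against 0.368, 0.0701 and 0.242 TPM. Both varied among the dentate libraries and were highest in replicate 3. Atoh1, which marks granule cell progenitors, and Gbx2 had too few counts to be tested.

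**Figure D2:**
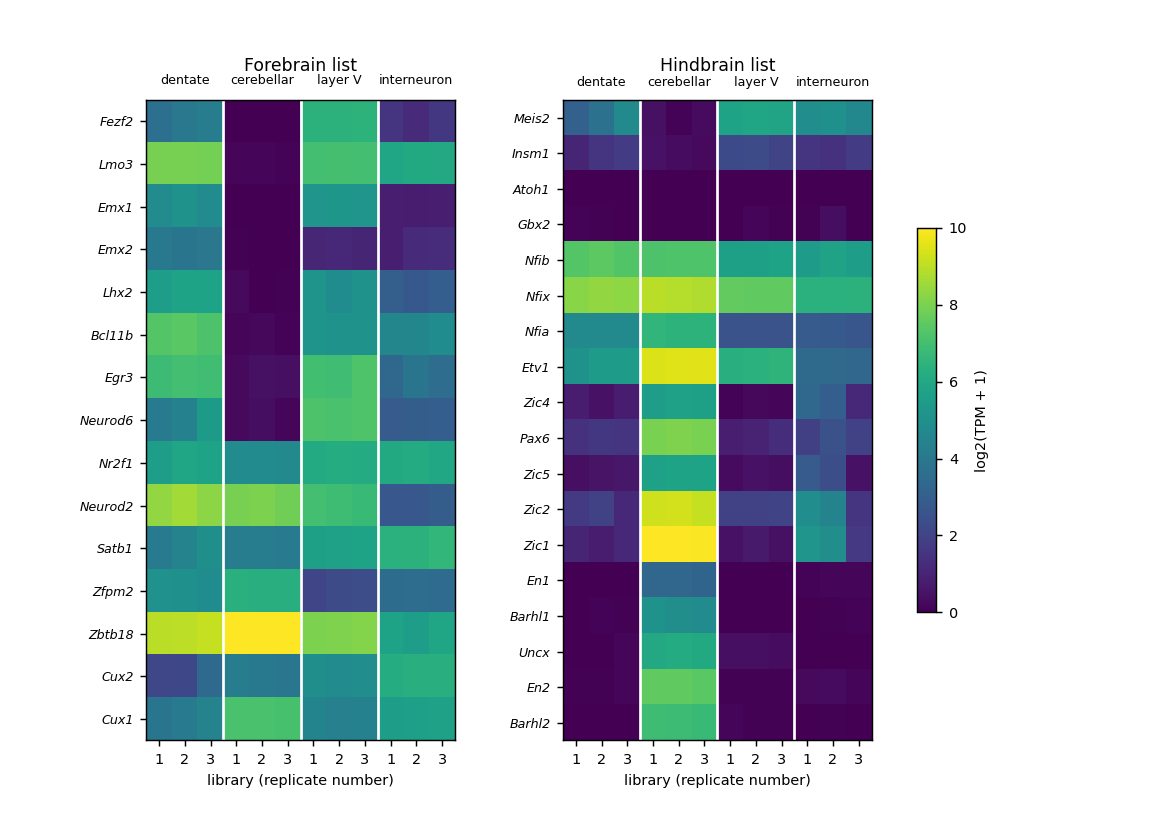
Level of 15 of the 24 listed forebrain and 18 of the 24 listed hindbrain transcription factors as log2(TPM + 1), one row a gene ordered by fitted fold change and one column a library, with dentate and cerebellar granule cells on the left and layer V neurons and interneurons on the right. Forebrain rows from Fezf2 down to Neurod6 are brighter in dentate than in cerebellar columns, where they are dark, hindbrain rows from Zic4 down to Barhl2 are the reverse, and Nfib, Nfix, Zbtb18 and Neurod2 are bright in both granule cells.

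Of the 24 forebrain factors, 21 reached 5 TPM in all 3 dentate libraries and 9 did so in all 3 cerebellar libraries, beside 20 in layer V neurons and 17 in interneurons. Of the 24 hindbrain factors, 6 reached 5 TPM in the dentate libraries and 18 in the cerebellar libraries, beside 5 in layer V neurons and 6 in interneurons. En2 was at 0.0360 to 0.0550 TPM in layer V neurons and 0.142 to 0.224 TPM in interneurons. Zic1 was at 0.375 to 0.636 TPM in layer V neurons, and in the interneuron libraries it ranged from 2.17 to 36.4 TPM.

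Among all protein-coding genes with at least 20 TPM in the higher cell type and no overlap, the 10 with the largest fitted dentate folds included C1ql2, Vwa3b, Ddn, Dsp, Rtn4rl2, Grp, Ntn5, Slit1 and Chrm1. Ddn, which encodes the dendritic protein dendrin, was at 1539, 1743 and 1620 TPM against 0.113, 0.195 and 0.0901 TPM (log2 fold change 13.74, SE 0.10, adjusted p = 6.7e-12). Chrm1, the M1 muscarinic receptor, was at 178, 203 and 178 against 0.0286, 0.0570 and 0.0332 TPM, and Rtn4rl2, a Nogo receptor homologue, at 118, 140.2 and 116 TPM with 1 count in the cerebellar libraries. Vwa3b, at 57.7, 72.7 and 59.4 TPM, had no count in any cerebellar library and was at least 863-fold higher in dentate granule cells when each empty library is set to 3 counts (edgeR adjusted p = 9.4e-09). These genes had few or no counts in the cerebellum at depths of 48481047 counts or more a library.

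The 10 largest in the cerebellar direction were Gabra6, Fat2, Barhl2, Cbln3, Cnpy1, Aqp6, Tlx3, En2, Crtam and Uncx. Crtam, a cell adhesion gene first known from lymphocytes, was at 162, 164 and 167 TPM against 0.160, 0.107 and 0.0435 TPM (log2 fold change -10.99, SE 0.10, adjusted p = 9.1e-12). The homeobox gene Uncx was at 65.3, 69.6 and 66.4 against 0.0125, 0 and 0.111 TPM, and Tlx3, another homeobox gene, was at 32.3, 30.7 and 25.0 TPM with 1 dentate count. Cnpy1, a canopy family gene, was at 80.6, 75.4 and 81.2 TPM and the aquaporin gene Aqp6 at 56.6, 56.3 and 49.1 TPM, each with 2 dentate counts. Barhl2, En2 and Uncx were also on the list of hindbrain transcription factors.

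Of 19 GABA-A receptor subunit genes, 17 could be tested, 8 were higher in the dentate gyrus and 6 in the cerebellum (median 0.81). Among alpha subunits, Gabra5, which builds tonic receptors in the hippocampus, was at 168, 192 and 161 TPM in dentate and 0.225, 0.151 and 0.180 TPM in cerebellar granule cells (log2 fold change 9.96, SE 0.13, adjusted p = 3.5e-11). Gabra2 was at 121, 128 and 118 against 0.972, 0.791 and 0.706 TPM and Gabra4 at 117, 119 and 113 against 1.64, 1.52 and 1.41 TPM. In all 3 of these genes the dentate levels were far above the cerebellar levels. Among beta subunits, Gabrb1 was higher in the dentate gyrus, at 43.7, 46.8 and 46.0 against 2.25, 1.94 and 1.96 TPM, and Gabrb2 was higher in the cerebellum, at 231, 221 and 230.2 against 88.5, 86.7 and 87.8 TPM.

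Of 18 ionotropic glutamate receptor genes, 11 were higher in the dentate gyrus and 5 in the cerebellum (median 2.34). Among AMPA receptor subunits, Gria1 was at 576, 617 and 585 TPM in dentate and 3.98, 3.86 and 3.76 TPM in cerebellar granule cells (log2 fold change 7.17, SE 0.06, adjusted p = 6.8e-12), and Gria3 at 96.1, 102 and 97.4 against 2.69, 1.56 and 1.95 TPM. Gria2, whose edited product makes the channel impermeable to calcium, was at 455, 476 and 437 against 69.7, 64.1 and 71.8 TPM. Gria4 ran in the opposite direction, at 198, 186 and 202 TPM in the cerebellum and 9.82, 12.0 and 13.5 TPM in the dentate gyrus (log2 fold change -4.13, SE 0.09, adjusted p = 4.9e-10). On the TPM scale, which corrects for length, Gria1 was therefore the most abundant AMPA receptor gene in all dentate libraries and Gria4 in all cerebellar libraries. NMDA receptor subunits were also divided: Grin2b was at 102, 99.2 and 98.3 against 0.305, 0.195 and 0.201 TPM and Grin2a at 69.2, 76.8 and 72.5 against 19.3, 22.9 and 29.2 TPM, both higher in the dentate gyrus. Grin2c, a subunit of mature cerebellar granule cells, was at 115, 109 and 101 TPM there and 2.69, 0.656 and 2.74 TPM in the dentate gyrus. The obligatory subunit gene Grin1 was not called, at 245, 265 and 268 TPM in dentate and 267, 257 and 245 TPM in cerebellar libraries (log2 fold change -0.03, SE 0.04, adjusted p = 0.51). Among kainate receptor genes Grik4, a subunit of CA3 and dentate neurons, was at 25.3, 26.6 and 29.2 against 0.628, 0.369 and 0.527 TPM, and Grik2 was just past the threshold in the other direction, at 67.7, 69.1 and 72.1 against 43.1, 43.8 and 37.5 TPM (adjusted p = 2.7e-06), a call lost with DESeq2 and without replicate 3 of either cell type.

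Proteins that travel with AMPA receptors were mostly higher in the dentate gyrus, with 10 of 16 genes called there and 2 in the cerebellum (median 4.69). Cnih2, a cornichon, was at 498, 592 and 548 TPM against 20.8, 20.4 and 17.4 TPM, and Cnih3 at 110.1, 142 and 113 against 0.206, 0.0959 and 0.162 TPM. The TARP gene Cacng8 (gamma-8), which is typical of the hippocampus, was at 224, 249.7 and 226 against 7.68, 7.61 and 6.71 TPM, and Cacng3 at 69.0, 80.5 and 81.5 against 0.133, 0.0880 and 0.0782 TPM. Cacng2 (stargazin), whose loss removes AMPA receptors from cerebellar granule cells, was at 68.5, 67.1 and 61.3 TPM in the cerebellum and 23.2, 28.4 and 31.6 TPM in the dentate gyrus (log2 fold change -1.33, SE 0.08, adjusted p = 4.6e-07). The other cerebellar gene was Shisa8, at 91.7, 89.8 and 84.6 against 1.57, 1.36 and 2.20 TPM, while Shisa6, Shisa7 and Shisa9 were all higher in the dentate gyrus, with log2 fold changes of 4.93, 5.54 and 7.49. Nptx1, a neuronal pentraxin, was at 605, 629.5 and 570.5 TPM in dentate and 583, 592 and 580 TPM in cerebellar libraries and did not pass the test.

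Of 8 metabotropic glutamate receptor genes, 7 could be tested, of which 5 were higher in the dentate gyrus and 1, Grm4 (above), in the cerebellum (median 5.28). Grm2, a presynaptic receptor of mossy fibres, was at 139.7, 171 and 140.3 TPM in dentate granule cells and 0.0822, 0.440 and 0.0975 TPM in cerebellar granule cells (log2 fold change 9.58, SE 0.28, adjusted p = 3.6e-09). Grm5 was at 100.0, 112 and 90.9 against 0.826, 0.761 and 1.01 TPM and Grm7 at 33.1, 40.3 and 39.4 against 0.297, 0.622 and 0.391 TPM.

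Of 37 voltage-gated potassium channel genes and their partners, 21 were higher in the dentate gyrus and 9 in the cerebellum (median 1.86). The 3 largest differences were in genes for subunits that form no channel alone and modify Kv2 channels: Kcng1 was at 60.9, 79.9 and 59.3 against 0.0383, 0.00958 and 0.00849 TPM, Kcnf1 at 44.0, 49.5 and 48.0 against 0.0193, 0 and 0.0154 TPM, and Kcnv1 at 17.4, 18.8 and 18.9 TPM with 2 counts in the cerebellum, a ratio of depth-scaled counts of 2350 (95% counting interval 651 to 19400, edgeR adjusted p = 1.8e-10). For A-type current, Kcnd2 (Kv4.2) was higher in the cerebellum, at 335, 328 and 350.1 against 96.5, 102 and 93.5 TPM, Kcnd3 was not called, and the Kv4 partner genes split, with Kcnip2 at 202, 212 and 202 against 1.90, 2.05 and 1.62 TPM in favour of the dentate gyrus and Kcnip4 at 228, 195 and 219 against 103, 109 and 104 TPM in favour of the cerebellum (log2 fold change -1.01, SE 0.07, adjusted p = 8.0e-07), where the call was lost with DESeq2 (log2 fold change -0.99) and on leaving out any library but cerebellar replicate 2. Kcnc1 (Kv3.1), a channel of fast firing, was at 658, 670 and 647 TPM in cerebellar and 61.9, 67.8 and 68.2 TPM in dentate granule cells (log2 fold change -2.92, SE 0.04, adjusted p = 6.5e-11). Kcna1 was called in the same direction as Kcnc1, and the M-current gene Kcnq3 in the direction of the dentate gyrus with a log2 fold change of 1.77.

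Of 22 leak, inward rectifier and calcium-activated potassium channel genes, 9 were higher in the dentate gyrus and 6 in the cerebellum (median 0.25). Inward rectifier genes differed in opposite directions: Kcnj4 was at 166, 184 and 168 TPM in the dentate gyrus and 0.0534, 0.124 and 0 TPM in the cerebellum (log2 fold change 11.43, SE 0.20, adjusted p = 1.7e-10), whereas Kcnj12 was at 185, 177 and 173 TPM in the cerebellum and 2.65, 4.20 and 5.49 TPM in the dentate gyrus (log2 fold change -5.51, SE 0.18, adjusted p = 8.0e-09). Kcnk3 (TASK-1), a leak channel of cerebellar granule cells, was at 134, 129 and 117 against 4.84, 5.88 and 5.12 TPM. Its relative Kcnk9 (TASK-3), listed as a cerebellar marker, was at 18.1, 17.2 and 17.3 TPM in cerebellar and 10.8, 11.4 and 11.9 TPM in dentate libraries, a difference below 2-fold. Kcnma1, the BK channel, was at 39.4, 44.4 and 42.2 against 2.42, 2.35 and 2.27 TPM, and Kcnt2 and Kcnt1, sodium-activated channels, differed in opposite directions, with Kcnt2 at 14.4, 16.1 and 12.4 against 0.0120, 0.0342 and 0.0376 TPM and Kcnt1 at 84.5, 71.0 and 76.0 TPM in the cerebellum against 9.02, 6.16 and 10.4 TPM.

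Of 30 sodium, calcium and HCN channel genes, 10 were higher in the dentate gyrus and 11 in the cerebellum (median 0.11). Scn3b, a sodium channel beta subunit, was at 242, 265 and 245 TPM in the dentate gyrus and 0.707, 0.627 and 0.650 TPM in the cerebellum, while Scn2b was at 139, 154 and 165 TPM in dentate and 403, 413 and 410.4 TPM in cerebellar libraries, higher in the cerebellum. Among pore-forming subunits, Scn3a was at 31.4, 31.6 and 26.1 against 0.0229, 0 and 0.0648 TPM, Scn2a was higher in the cerebellum at 303, 286 and 316 against 97.1, 99.0 and 93.5 TPM, and Scn8a was not called at 73.4, 79.2 and 78.7 TPM in dentate and 66.2, 64.2 and 73.1 TPM in cerebellar libraries. The T-type calcium channel gene Cacna1h was at 64.6, 77.1 and 64.0 against 0.161, 0.151 and 0.0743 TPM (log2 fold change 10.06, SE 0.15, adjusted p = 6.1e-11), and the P/Q-type gene Cacna1a was at 211, 206 and 201 TPM in the cerebellum against 64.0, 66.3 and 75.2 TPM (log2 fold change -2.26, SE 0.06, adjusted p = 3.1e-09). Among intracellular fibroblast growth factors, which bind sodium channels, Fgf13 was higher in the dentate gyrus at 313, 349 and 318 against 65.8, 67.9 and 67.3 TPM, and Fgf12 and Fgf14 were higher in the cerebellum, with log2 fold changes of -1.88 and -1.57.

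Calcium signalling genes included some of the most abundant genes of the comparison. Nrgn, which encodes the postsynaptic calmodulin-binding protein neurogranin, was at 3211, 3982 and 3371 TPM in dentate and 0.942, 0.531 and 0.970 TPM in cerebellar granule cells (log2 fold change 11.88, SE 0.15, adjusted p = 3.7e-11), and Camk2a, the alpha subunit of calcium/calmodulin-dependent kinase II, was at 2846, 3188 and 3012 against 1.03, 0.873 and 0.915 TPM (log2 fold change 11.60, SE 0.10, adjusted p = 6.8e-12). Both are standard markers of forebrain excitatory neurons. Camk2b, the beta subunit, was present in both cells at 1635, 1698 and 1610 TPM in dentate and 789, 774 and 762 TPM in cerebellar libraries and just missed the 2-fold threshold (log2 fold change 0.97, SE 0.05, adjusted p = 1.9e-07), which it passed without dentate replicate 2 or 3 (1.00 and 1.06), while Camk2d was higher in the cerebellum at 306, 305 and 319 against 17.5, 34.3 and 40.7 TPM. Camk4, a nuclear kinase that phosphorylates CREB, was at 447, 429 and 518 TPM in the cerebellum and 17.4, 21.6 and 16.9 TPM in the dentate gyrus (log2 fold change -4.70, SE 0.11, adjusted p = 1.0e-09). In all, 9 of 22 kinase genes were higher in the dentate gyrus and 5 in the cerebellum (median 0.59), and 10 of 21 calcium-binding and sensor genes were higher in the dentate gyrus and 6 in the cerebellum (median 0.47). The calmodulin genes Calm2 and Calm3 were not called, with log2 fold changes of -0.35 and 0.47 at levels of 1445 TPM or more in every library. Vsnl1 (visinin-like 1) was at 2248, 2205 and 2202 against 266, 316 and 452 TPM, higher in the cerebellum, and Hpca (hippocalcin) was at 1432, 1624 and 1572 against 8.77, 9.35 and 7.15 TPM, higher in the dentate gyrus.

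Of 37 genes for proteins that organise synapses, 19 were higher in the dentate gyrus and 9 in the cerebellum (median 1.17). The C1q-like genes C1ql2 and C1ql3 (above) were higher in the dentate gyrus and the cerebellins Cbln1 and Cbln3 in the cerebellum, and Cbln1, the smallest of these 4 differences, had a log2 fold change of -7.90 (SE 0.28, adjusted p = 1.4e-08). The neurexin genes Nrxn3 and Nrxn2 were higher in the cerebellum, Nrxn3 at 262, 229 and 230.5 against 30.4, 33.8 and 35.7 TPM (log2 fold change -2.78, SE 0.06, adjusted p = 8.7e-10) and Nrxn2 with a log2 fold change of -1.05. Nrxn2 missed the 2-fold threshold with upper quartile normalization (-0.99) and without dentate replicate 1 (-0.96) or 3 (-0.98). The neuroligin genes Nlgn1 and Nlgn3 were higher in the dentate gyrus, with log2 fold changes of 1.40 and 1.24, and Nlgn2 was not called. LRRTM genes, postsynaptic partners of neurexins, split: Lrrtm4 was at 116, 119 and 96.7 against 1.25, 1.69 and 1.58 TPM and Lrrtm1 at 117, 142 and 136 against 2.54, 1.99 and 1.97 TPM, whereas Lrrtm3 was at 146, 132 and 134 TPM in the cerebellum against 26.0, 24.3 and 36.3 TPM. Adgrb1 (BAI1), an adhesion receptor of dendritic spines, was at 217, 241 and 237 against 8.20, 6.76 and 6.29 TPM.

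Of 36 genes for vesicular transporters, synaptotagmins and other proteins of vesicle release, 9 were higher in the dentate gyrus, a share close to the 27.1% of all genes tested, and 13 in the cerebellum, beside 15.4% of all genes (median -0.12). Slc30a3 (ZnT3), which loads zinc into the vesicles of hippocampal mossy fibres, was at 160, 179 and 163 TPM in dentate and 0.119, 0.127 and 0.0803 TPM in cerebellar granule cells (log2 fold change 10.57, SE 0.09, adjusted p = 7.9e-12), and Syt17 was at 136, 154 and 142 against 0.455, 0.635 and 0.543 TPM. Syt2, a fast calcium sensor for release, was at 521, 484 and 508 TPM in the cerebellum, and in the dentate libraries it was at 0.852, 2.42 and 8.55 TPM, highest in replicate 3. Syt1, the main forebrain sensor, was not called, at 413, 470.2 and 526 TPM in dentate and 655, 679.5 and 673 TPM in cerebellar libraries. Active zone genes Rims1, Rims2 and Rims3 were all higher in the cerebellum, with log2 fold changes of -2.20, -2.78 and -5.17. Priming factors split, with Unc13c at 84.0, 77.0 and 80.2 against 1.85, 3.32 and 4.85 TPM in the cerebellum, Unc13b at 13.0, 12.7 and 15.0 against 1.72, 1.56 and 1.84 TPM in the dentate gyrus and Unc13a not called. Cadps2, a protein for dense-core vesicle release, was at 602, 599.6 and 611 against 29.8, 36.5 and 30.2 TPM, while its relative Cadps was not called, at 81.5, 81.8 and 95.4 TPM in dentate and 91.02, 88.7 and 91.6 TPM in cerebellar libraries.

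Of 27 neuropeptide and growth factor genes, 25 could be tested, with 17 higher in the dentate gyrus and 4 in the cerebellum (median 3.02), beside 27.1% and 15.4% of all genes tested. Pdyn, the dynorphin precursor of mossy fibres, was at 76.9, 87.3 and 75.8 TPM in dentate granule cells and 0.0555, 0.343 and 0.0165 TPM in cerebellar granule cells (log2 fold change 10.48, SE 0.16, adjusted p = 7.7e-11), and Penk, the enkephalin precursor, at 77.6, 115 and 77.9 against 1.64, 1.86 and 2.55 TPM. Grp (gastrin-releasing peptide) was at 48.4, 54.0 and 54.6 TPM with no count in the cerebellum, at least 381-fold higher in dentate granule cells when each empty library is set to 3 counts (edgeR adjusted p = 5.6e-09). Cck was at 623, 884 and 1020 against 1.13, 1.11 and 1.54 TPM and varied among the dentate libraries. Bdnf, made by both cells, was at 40.9, 45.6 and 45.0 TPM in dentate and 23.0, 21.8 and 22.7 TPM in cerebellar libraries and missed the 2-fold threshold (log2 fold change 0.92, SE 0.05, adjusted p = 1.4e-07). The 4 cerebellar genes were Fgf1, Fgf9, Fgf20 and Wnt7a: Fgf1 was at 89.6, 85.8 and 84.9 against 1.81, 1.95 and 1.94 TPM (log2 fold change -5.60, SE 0.05, adjusted p = 9.7e-12), and Wnt7a, which acts on mossy fibre terminals in the cerebellum, at 89.8, 92.8 and 84.2 against 5.88, 4.91 and 5.502 TPM. Its relative Wnt7b was the reverse, at 71.9, 90.6 and 79.6 TPM in the dentate gyrus and 0.176, 0.193 and 0.0858 TPM in the cerebellum.

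Sst, the somatostatin gene of interneurons, was also called higher in the dentate libraries, at 45.3, 93.96 and 134 against 0.270, 0.144 and 0.380 TPM, and belongs to a marker list taken up below.

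Of 25 nuclear hormone receptor genes, 13 were higher in the dentate gyrus and 8 in the cerebellum (median 1.14). The 2 corticosteroid receptors differed in opposite directions. Nr3c2, the mineralocorticoid receptor, was at 132, 152 and 116 TPM in dentate and 9.18, 7.39 and 6.12 TPM in cerebellar granule cells (log2 fold change 3.94, SE 0.13, adjusted p = 9.2e-09), and Nr3c1, the glucocorticoid receptor, was at 75.2, 71.0 and 72.5 TPM in the cerebellum and 31.4, 34.2 and 33.9 TPM in the dentate gyrus (log2 fold change -1.21, SE 0.04, adjusted p = 8.4e-09). Both thyroid hormone receptor genes were higher in the dentate gyrus, Thra at 912, 1040 and 989 against 434, 421 and 385 TPM and Thrb at 25.4, 25.3 and 27.4 against 1.38, 1.10 and 1.64 TPM. Rora, a retinoid-related orphan receptor, was at 61.0, 58.0 and 60.6 against 4.99, 5.28 and 9.08 TPM, higher in the cerebellum.

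Genes that respond to activity did not differ in 1 direction: 9 of 25 were higher in the dentate gyrus and 6 in the cerebellum (median 0.72). Egr3 was at 116, 129 and 121 against 0.184, 0.378 and 0.331 TPM and Ptgs2 (COX-2) at 12.3, 14.8 and 11.8 TPM with 1 count in the cerebellum. Fos was higher in the cerebellum, at 12.8, 16.4 and 33.0 against 3.22, 5.65 and 4.87 TPM, and its cerebellar values spread more than its dentate ones. Dusp5, a phosphatase of ERK, was at 172, 184 and 195 against 2.62, 4.08 and 4.41 TPM (log2 fold change -5.75, SE 0.15, adjusted p = 1.6e-09). Arc and Nr4a1 were not called, with Arc at 14.5, 22.8 and 23.1 TPM in dentate and 33.5, 27.1 and 22.6 TPM in cerebellar libraries and Nr4a1 at 7.58, 9.51 and 8.95 TPM in dentate and 6.64, 6.82 and 7.93 TPM in cerebellar libraries.

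Of 20 immature neuron genes, 19 could be tested, with 9 higher in the dentate gyrus and 4 in the cerebellum (median 0.86). Dcx (doublecortin), a marker of young neurons of the adult dentate gyrus, was low in both, at 2.09, 1.70 and 2.16 against 0.316, 0.468 and 0.451 TPM, and was called higher in the dentate gyrus. Sox11 was at 11.2, 12.0 and 11.2 against 0.491, 0.481 and 0.578 TPM, Tubb2b at 211, 273 and 203 against 2.67, 2.23 and 1.64 TPM and Marcksl1 at 344, 414 and 309 against 1.02, 0.751 and 0.861 TPM. Eomes (Tbr2), which marks intermediate progenitors in the forebrain and unipolar brush cells in the cerebellum, was at 39.0, 38.8 and 31.7 TPM in the cerebellar libraries and 0.133, 0.177 and 0.113 TPM in the dentate libraries. Stmn2 was at 1640, 1643 and 1625 against 106, 152 and 201 TPM, higher in the cerebellum.

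**Figure D3:**
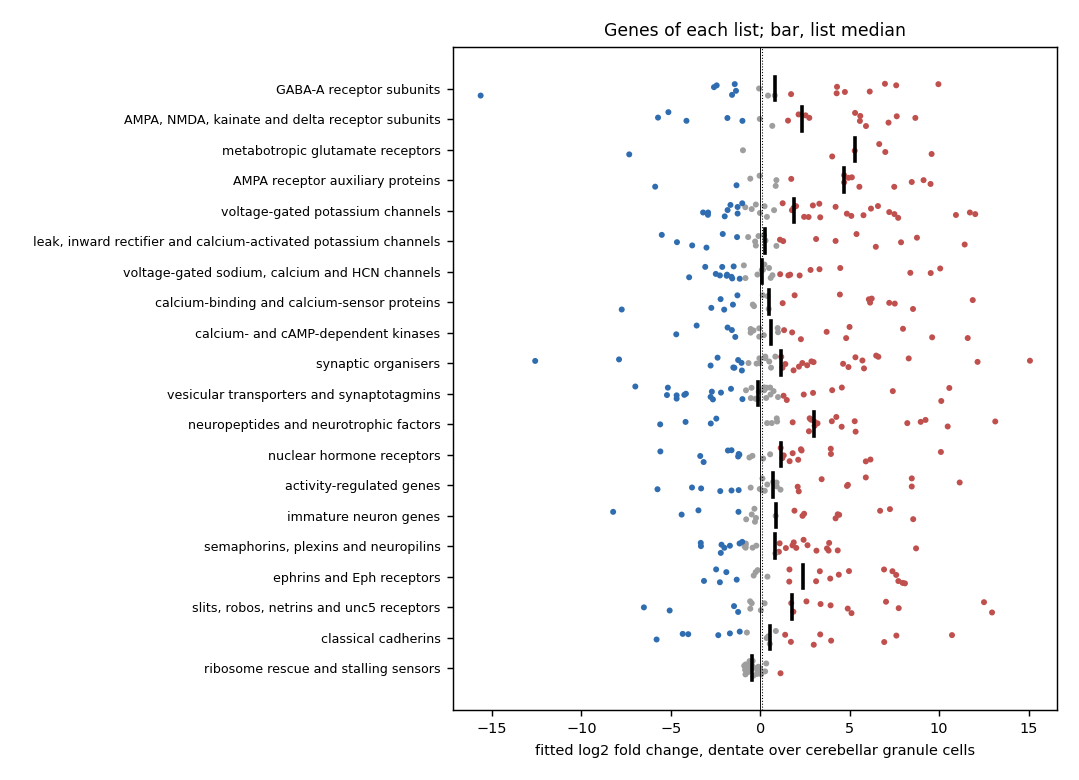
Fitted log2 fold change of each tested gene, dentate over cerebellar, for 20 gene lists, with genes called higher in the dentate gyrus in red, higher in the cerebellum in blue and not called in grey, and a black bar at the median of each list. The dotted line is the median of all genes tested (0.075). Metabotropic glutamate receptors and AMPA receptor auxiliary proteins have the highest medians (5.28 and 4.69), and ribosome rescue genes lie between -0.90 and 1.13.

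Axon guidance genes followed both directions. Of 20 slit, robo, netrin and unc5 genes, 11 were higher in the dentate gyrus and 4 in the cerebellum (median 1.79), beside 27.1% and 15.4% of all genes tested. Slit1 was at 156, 164 and 157 against 0.0566, 0.128 and 0.00762 TPM, and its receptor gene Robo2 at 59.9, 74.1 and 50.5 against 1.52, 1.81 and 2.38 TPM. Ntn5 was at 20.9, 25.2 and 23.5 TPM with no cerebellar count, at least 336-fold higher in dentate granule cells when each empty library is set to 3 counts (edgeR adjusted p = 1.1e-08). Unc5b, a netrin receptor, was at 47.2, 47.2 and 47.2 TPM in the cerebellum against 1.40, 1.62 and 1.39 TPM (log2 fold change -5.07, SE 0.05, adjusted p = 1.6e-11), and Ntn4 at 38.9, 41.9 and 39.8 against 0.321, 0.374 and 0.666 TPM.

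Of 22 ephrin and Eph receptor genes, 13 were higher in the dentate gyrus and 5 in the cerebellum (median 2.37, or 2.23 with genes empty in 1 cell type at their bound). Epha4 was at 233, 233 and 210.4 TPM against 0.852, 0.796 and 0.631 TPM, Efnb3 at 144, 167 and 139 against 0.873, 0.641 and 0.610 TPM, and Ephb1 was higher in the cerebellum at 36.9, 42.3 and 43.3 against 8.20, 10.8 and 9.27 TPM. Of 29 semaphorin, plexin and neuropilin genes, 14 were higher in the dentate gyrus and 8 in the cerebellum (median 0.84). Nrp1 was at 66.9, 73.2 and 67.1 against 0.205, 0.145 and 0.118 TPM and Nrp2 at 38.3, 42.04 and 38.6 against 2.74, 3.22 and 2.67 TPM, both higher in the dentate gyrus, and Sema6a, which acts in cerebellar granule cell migration, was at 24.8, 23.5 and 22.9 TPM in the cerebellum against 2.60, 2.83 and 2.29 TPM.

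Of 19 cadherin genes, 8 were higher in the dentate gyrus and 6 in the cerebellum (median 0.53). Cdh9, a cadherin of dentate and CA3 neurons, was at 47.6, 51.3 and 50.9 TPM in dentate and 0.0319, 0.0215 and 0.0385 TPM in cerebellar granule cells (log2 fold change 10.72, SE 0.11, adjusted p = 1.5e-11). Cdh7, Cdh15 and Cdh18 were higher in the cerebellum, Cdh7 at 61.2, 64.2 and 66.8 against 0.805, 1.12 and 1.57 TPM and Cdh15 at 75.3, 70.8 and 70.3 against 3.75, 4.67 and 3.01 TPM. Cdh2 (N-cadherin) and Cdh8 were present in both and were not called, Cdh2 at 94.9, 111 and 99.3 TPM in dentate and 70.6, 73.0 and 74.5 TPM in cerebellar libraries.

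Genes for ribosome rescue and for sensing stalled ribosomes differed by less than 2-fold with 1 exception. Of 24, 1 was called higher in the dentate gyrus, none in the cerebellum, and the median was -0.45 (0.075 over all genes). The called gene was Ascc2, a subunit of a complex that splits collided ribosomes, at 11.02, 10.4 and 10.9 against 5.21, 4.76 and 4.96 TPM (log2 fold change 1.13, SE 0.08, adjusted p = 1.3e-06). Gtpbp1, a GTPase that acts on stalled ribosomes, was at 54.2, 63.8 and 59.4 TPM in the dentate gyrus and 101, 101 and 95.2 TPM in the cerebellum, and its paralogue Gtpbp2 at 45.5, 28.5 and 42.2 TPM in dentate and 52.5, 48.6 and 52.6 TPM in cerebellar libraries, with log2 fold changes of -0.83 and -0.69. The stress factor gene Atf4 was at 56.8, 74.99 and 69.3 TPM in dentate and 111, 110.1 and 107 TPM in cerebellar libraries. These differences passed the adjusted p but not the fold threshold.

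Transcripts were compared next. Of 51138 transcripts tested, 10027 (19.6%) were higher in dentate and 6426 (12.6%) in cerebellar granule cells at the same thresholds. Among 10775 genes with at least 2 tested transcripts, 616 had transcripts called in both directions, and 430 of these were not called as genes. A change in transcript choice was called where edgeR's diffSpliceDGE gave a gene an adjusted Simes p of at most 0.05 and the share of the gene's TPM held by 1 transcript moved by at least 25 percentage points with no overlap between groups. It was called for 356 of 7608 genes that had at least 5 TPM in every library (4.68%). Of these 356, 45 were higher in the dentate gyrus as genes, 86 were higher in the cerebellum and 225 were not called. In 199 the most abundant transcript differed between the cell types, and in 163 of them both leading transcripts were protein coding. Of 194 that could be placed in GENCODE M21, 91 had leading transcripts whose starts lie more than 1000 bases apart. Reads shared by overlapping transcripts are divided by estimation, so these shares are estimates.

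Fgf13, on the X chromosome, had the largest shift. Fgf13-201 held 97.0, 95.2 and 93.7% of the gene's TPM in the dentate libraries and 2.92, 2.56 and 2.93% in the cerebellar libraries (edgeR adjusted p = 1.4e-25). Fgf13-202, which starts further upstream, held 0% in all 3 dentate libraries and 30.9, 35.8 and 27.8% in the cerebellum. Transcripts were also summed by the region in which they start, with the noncoding Fgf13-207 grouped with Fgf13-201. This group made up 98.5 to 98.8% of the dentate total and 6.80 to 11.5% of the cerebellar total. In the cerebellum Fgf13-207 was the larger part of it (means of 6.41% and 2.8%). Transcripts that start far upstream made up 1.17 to 1.49% of the dentate and 57.5 to 60.7% of the cerebellar total. Most of the latter came from short annotated transcripts. Fgf13-205, Fgf13-206 and Fgf13-208, of 575, 456 and 617 bases, held cerebellar means of 20.2, 26.1 and 3.56%. The longer Fgf13-203, of 2237 bases, held 9.42%. Layer V neurons were at 96.6 to 96.9% for the group of Fgf13-201 and Fgf13-207 and interneurons at 23.1 to 26.9%. The first exons encode different N-terminal ends of this sodium channel-binding protein.

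The promoter windows of these 2 Fgf13 transcripts are printed because the 2 granule cells differ in which of them they use. They lie on the minus strand of GRCm38.p6 at chrX:59134387-59134686 (Fgf13-201) and chrX:59166039-59166338 (Fgf13-202), with capitals for TTGGC on either strand as above.
Fgf13-201: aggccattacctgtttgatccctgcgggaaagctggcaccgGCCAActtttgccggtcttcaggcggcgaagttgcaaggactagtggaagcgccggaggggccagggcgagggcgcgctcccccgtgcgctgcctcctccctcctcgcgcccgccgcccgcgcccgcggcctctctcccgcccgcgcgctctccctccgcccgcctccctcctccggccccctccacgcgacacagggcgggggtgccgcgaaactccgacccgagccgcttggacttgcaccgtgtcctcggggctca
Fgf13-202: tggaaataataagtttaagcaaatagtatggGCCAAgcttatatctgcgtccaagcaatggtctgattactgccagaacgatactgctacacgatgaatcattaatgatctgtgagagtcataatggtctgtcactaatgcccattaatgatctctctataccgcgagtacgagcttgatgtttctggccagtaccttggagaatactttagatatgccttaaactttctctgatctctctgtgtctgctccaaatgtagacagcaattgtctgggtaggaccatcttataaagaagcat
The window of Fgf13-201, which leads in the dentate gyrus, held 37 CpG at 73.0% GC, and that of Fgf13-202 held 6 CpG at 40.3% GC. Each held 1 TTGGC match and no E-box. The RefSeq start used for the Fgf13-202 window lies 76 bases from the start of that transcript. Most cerebellar Fgf13 TPM (57.5 to 60.7%) came from transcripts that start far upstream, whose promoter windows are not printed.

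Grin1, which was not called as a gene, differed in its transcripts. Grin1-201 held 53.9, 54.2 and 48.9% of Grin1 TPM in the dentate libraries and 0% in the cerebellar libraries, while Grin1-203 and Grin1-207 held means of 26.1% and 29.2% in the cerebellum against 0.28% and 2.13% in the dentate gyrus (edgeR adjusted p = 2.5e-26). The transcripts were then divided by a cassette exon of 63 bases, a feature chosen after their values had been seen, which lies on the minus strand at chr2:25311343-25311405 (GRCm38) and is held by 4 of the 8 protein-coding transcripts. The exon codes for a stretch of the extracellular N-terminal domain of the NMDA receptor and is printed whole.
Grin1 cassette exon: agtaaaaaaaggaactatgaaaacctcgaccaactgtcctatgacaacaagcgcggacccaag
Transcripts with this exon made up 3.86, 4.20 and 5.97% of Grin1 TPM in dentate granule cells and 76.1, 77.0 and 78.4% in cerebellar granule cells. The groups lay far apart, with layer V neurons at 24.7 to 29.0% and interneurons at 39.5 to 43.5% between them.

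**Figure D4:**
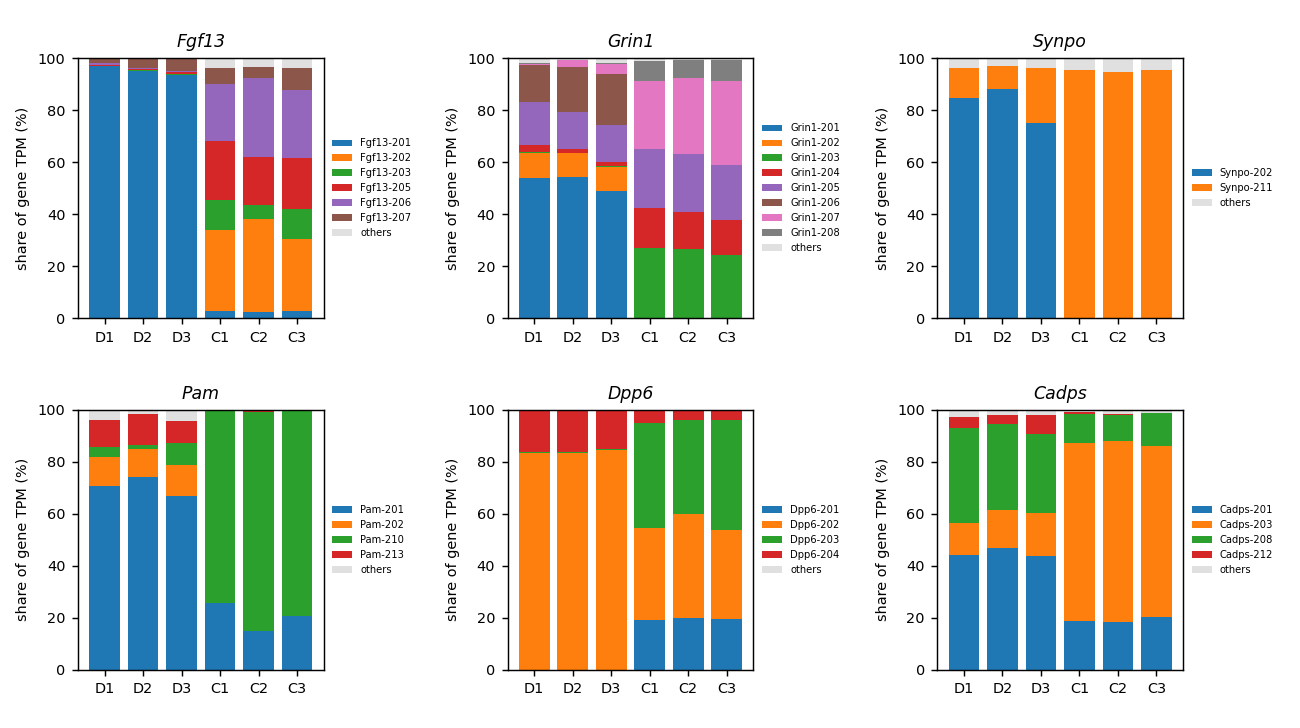
Share of each gene's TPM held by its transcripts, one bar a library, with dentate replicates D1 to D3 and cerebellar replicates C1 to C3, for Fgf13, Grin1, Synpo, Pam, Dpp6 and Cadps. Transcripts that stayed below 5% in every library are pooled as others. In each gene the 3 libraries of a cell type look alike and the shares differ between cell types.

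The other genes among the 10 largest shifts were Synpo, Phactr3, Pam, Arhgef2, Trim2, Rcan2, Slc25a25, Phactr1 and Syne1. Synpo encodes synaptopodin, an actin-binding protein of dendritic spines. Synpo-202 held 84.6, 88.3 and 75.1% of its TPM in the dentate libraries and 0% in the cerebellum, where Synpo-211 held 95.3, 94.7 and 95.3%. Pam encodes an enzyme that amidates neuropeptides, and Pam-210 held 74.4, 83.8 and 79.4% in the cerebellum and 4.11, 1.60 and 8.43% in the dentate gyrus. In Phactr1 and Phactr3, regulators of actin and phosphatase 1, Phactr1-205 held 61.8, 66.3 and 66.3% in the dentate gyrus and a mean of 0.06% in the cerebellum, and Phactr3-204 a mean of 2.43% in the dentate gyrus and 81.9, 82.0 and 83.2% in the cerebellum. Arhgef2-219 held 71.6, 74.7 and 71.1% in the cerebellum and a mean of 0.66% in the dentate gyrus. In Syne1 the transcript that led in the dentate gyrus, Syne1-207, is annotated as a retained intron, and with protein-coding transcripts alone the largest shift of Syne1 was 8.22 percentage points and the call was lost. Rcan2-201 held 88.1, 80.0 and 81.7% in the dentate gyrus and 24.7, 14.1 and 13.7% in the cerebellum (adjusted p = 0.013), and its call was lost without dentate replicate 3 (adjusted p = 0.097) and without cerebellar replicate 1, 2 or 3 (0.092, 0.16 and 0.13). The call of Synpo was lost without any 1 dentate replicate, when Synpo-202 no longer passed the count filter.

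Of 218 listed genes with at least 2 tested transcripts, 19 had a changed choice, beside 356 of all 7608 genes tested for it (4.68%). Besides Fgf13 and Grin1, they included 5 channel genes. In Dpp6, a partner of Kv4 channels, Dpp6-202 held 83.3, 83.1 and 84.4% of TPM in the dentate gyrus and 35.3, 39.9 and 34.4% in the cerebellum, where Dpp6-203 held 40.5, 36.2 and 41.9%. In Kcnc1, Kcnc1-203 held 81.8, 82.3 and 82.8% in the cerebellum and 52.7, 52.6 and 54.6% in the dentate gyrus. Cacna1a-210, a short annotated transcript of 549 bases, held 36.9, 43.5 and 40.9% in the dentate gyrus and 11.7, 10.9 and 11.1% in the cerebellum. The long Cacna1a-201, of 7926 bases, held means of 27.5% and 24.7%. Scn1a and Kcnt1 were the other channel genes called (adjusted p = 0.013 and 3.6e-04). In Cadps, Cadps-203 held 68.6, 69.4 and 65.6% in the cerebellum and 12.4, 14.4 and 16.6% in the dentate gyrus. In Bdnf, whose transcripts begin at alternative first exons that respond to different signals, Bdnf-205 held 79.0, 77.1 and 71.7% in the dentate gyrus and 50.2, 42.4 and 49.0% in the cerebellum (adjusted p = 0.014). Among transcription factor genes, Satb1 had a transcript that held 53.2, 62.5 and 60.6% in the cerebellum and 16.5, 9.16 and 7.50% in the dentate gyrus, and Rfx3, Nr2f1, Nr3c2, Esrra and Esrrg were also called. The remaining 4 were Calb1, Adgrb1, Caln1 and Nrxn3. In Calb1 the transcript that moved most, Calb1-202, is annotated as a retained intron (means of 34.8% in the dentate gyrus and 0% in the cerebellum). The protein-coding Calb1-201 led in both cell types, at means of 64.9% and 78.4%.

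Genes of other cell types also differed between the libraries, and fewer cells of a type and less RNA per cell cannot be told apart in such bulk samples. All 12 markers listed for hippocampal pyramidal neurons were higher in the dentate libraries, with a summed level of 604 to 784 TPM against 17.9 to 19.8 TPM in the cerebellum, beside 769 to 801 TPM in layer V neurons. Crym and Rgs14 made up most of it, Crym at 281, 338 and 305 TPM. Wfs1, a CA1 marker, was at 38.03, 60.6 and 117 TPM, Mpped1 at 42.3, 64.4 and 83.1 TPM and Neurod6, a factor of pyramidal neurons, at 17.0, 20.1 and 42.4 TPM in the dentate libraries, each lowest in replicate 1 and highest in replicate 3. Of 12 interneuron markers, 11 were higher in the dentate libraries and 1, Pvalb, in the cerebellum, with a sum of 215 to 319 against 17.9 to 19.0 TPM and 11330 to 12490 TPM in the interneuron libraries. Dlx2, Dlx5 and Dlx6os1 were at 0 in the cerebellar libraries.

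Gad1, which makes GABA and is known to be transcribed by dentate granule cells too, was at 146, 159.7 and 143 TPM in the dentate libraries and 4.82, 4.70 and 5.89 TPM in the cerebellum. Gad2 and Slc32a1, the other GABA genes of interneurons, were at 3.73, 4.46 and 5.99 TPM and 2.19, 3.74 and 4.78 TPM in the dentate libraries. In the interneuron libraries the 3 genes were at 1978 to 2084, 551 to 603 and 527 to 546 TPM.

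Several glial and vascular marker lists held genes that were higher on the dentate side: 7 of 9 oligodendrocyte genes (sum 296 to 424 against 124 to 151 TPM), 6 of 7 microglial genes (21.2 to 24.4 against 9.38 to 11.4 TPM), 5 of 7 endothelial and mural genes (22.4 to 46.9 against 4.10 to 9.36 TPM) and 6 of 6 choroid plexus and ependymal genes (95.2 to 231 against 0.947 to 2.46 TPM, mostly Ttr). All 4 oligodendrocyte precursor genes were called higher as well (3.41 to 6.13 against 0.639 to 1.06 TPM). Of 9 astrocyte genes, 5 were higher in the dentate libraries and 1, Aldoc, in the cerebellum, and the sums overlapped at 112 to 208 and 167 to 202 TPM in granule cells, beside 16050 to 17550 TPM in astrocyte libraries. Of 6 Bergmann glial genes 2 were higher in the dentate libraries and 1 in the cerebellum (70.2 to 105 and 217 to 239 TPM), and of 4 haemoglobin genes 1 was called.

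On the cerebellar side, Pcp2 and Car8, Purkinje cell genes, were at 15.6, 16.2 and 13.5 TPM and 15.0, 15.8 and 15.2 TPM in the cerebellar libraries and at 0, 0.0368 and 0 TPM and 0.274, 0.239 and 0.474 TPM in the dentate libraries. In all, 3 of 9 Purkinje cell markers were higher there and 4 in the dentate libraries, where Calb1 and Pcp4 are themselves abundant. Of 3 tested unipolar brush cell genes, 1, Eomes (above), was higher in the cerebellum. Of 8 genes of molecular layer interneurons and Golgi cells, 3 were higher in the cerebellum and 4 in the dentate libraries (sums 27.5 to 29.3 and 304 to 357 TPM, mostly Gad1 and Grm2). Of 6 markers of mossy and Cajal-Retzius cells, 2 were higher in the dentate libraries and 4 in the cerebellum, where Calb2 is a granule cell gene. The part of these other cells in the differences between granule cells was not tested. Meis2, Insm1, Cck and Npy had the same order over the dentate libraries as Wfs1, Neurod6 and Sst, lowest in replicate 1 and highest in replicate 3, with Npy at 11.9, 15.99 and 21.1 TPM. So did other genes named above, among them Fezf2, Satb1, Cux2, Syt2 and Camk2d. Neurod6 is also on the list of forebrain factors. How many genes share this order was not counted.

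**Figure D5:**
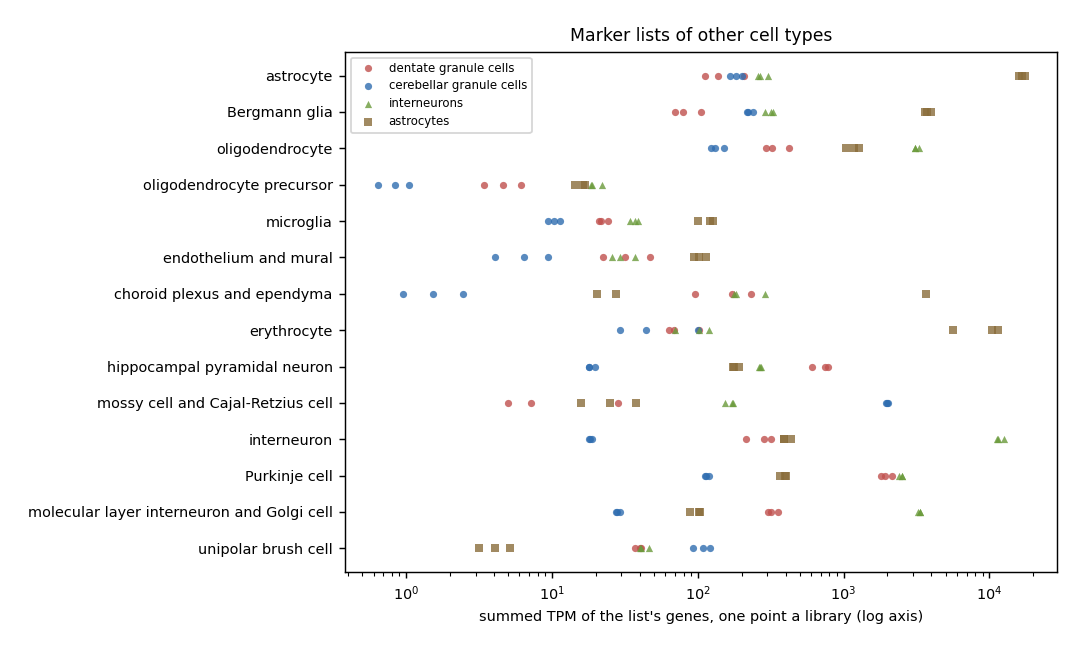
Summed TPM of marker lists of other cell types on a log axis, one point a library, in dentate granule cells (red circles), cerebellar granule cells (blue circles), interneurons (green triangles) and astrocytes (brown squares). Pyramidal, interneuron, oligodendrocyte, microglial and endothelial lists lie higher in the dentate than in the cerebellar libraries, and the astrocyte and interneuron lists of granule cells lie far below the libraries of those cells.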

How the data were processed

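Ribosome-associated, polyadenylated RNA was sequenced from mouse brain (Kapa Stranded mRNA-Seq). Per the labels and the study's methods, the authors trimmed reads with cutadapt 3.5 and deposited, for each library, estimated counts and TPM of 142552 transcripts from kallisto 0.46.2 and GENCODE M24 (GRCm38). Here estimated counts were summed over the transcripts of each of 55385 genes and rounded. Features that reached 5 counts in 47% of libraries or more entered the fit with edgeR 4.0.16 (R 4.3.3, TMM normalization, quasi-likelihood test), in place of the sleuth test of the study's methods. For a call, adjusted p had to be 0.05 or lower and the fold 2 or higher. Transcript choice was tested with diffSpliceDGE. Levels are deposited TPM summed per gene and were not tested. Where a group had no count, its libraries were set to a floor of 3 counts each, and where it had 1 to 3 counts a 95% exact Poisson interval is given. Both cover counting error only. Gene coordinates came from GENCODE M21 (GRCm38), since no M24 annotation was used here, and promoter sequences from RefSeq (GRCm38.p6).

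Genes named are Prox1 and Gabra6, members of gene lists, the 10 called protein-coding genes with the largest fold in each direction (mean of at least 20 TPM in the higher cell type, no overlap), the 10 largest transcript shifts and list members with a changed transcript choice. Some of them are not reported here. The members and lists were chosen with earlier results of these data known. Alternatives were DESeq2 1.42.0, other normalizations, filters and fold thresholds, sex or replicate number as a term, batch 2 libraries of replicate 3, 12 libraries in the fit, length-scaled counts, limma 3.58.1 on log2 TPM, protein-coding transcripts only, and leaving out each library. On simulated counts, called by adjusted p alone, the fits recovered 200 of 200 changed genes, 200 of 200 transcripts and 200 of 200 changes of transcript choice. Features called without a change were 10 of 18346 genes tested and 8 of 49696 transcripts. In the test of transcript choice they were 27 of 7608 genes, beside the 200 recovered. Each of these fits held 200 changed features, and a fit with as many as the 7944 genes called here was not tested.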

Additional observations from a re-analysis of the deposited data

How the results depend on the processing

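Both gene counts kept within 1.5 times of those reported (5064 and 2880) under the alternatives run, except that without a fold threshold 6797 genes were higher in the cerebellum. DESeq2 called 4814 and 2712 genes, limma on log2 TPM 3651 and 2137. The share of called genes that were higher in the dentate gyrus was 57.9 to 66.9% wherever a fold threshold was kept and 52.4% (7483 genes) without one, and only the run with no filter on low counts moved the median of all genes by over 0.1 (to 0.317). Of transcripts higher in the cerebellum, 4113 were called with a test against a fold of 2 and 10464 without a fold threshold. With 1 dentate library left out, 5555 to 6619 transcripts were higher in the dentate gyrus, and with 1 cerebellar library left out 9040 to 9278. The filter then asks for 3 of 5 libraries and drops features present in the remaining 2 dentate libraries alone, and with the same features tested (an alternative added after seeing the data) the counts were 8178 to 9571. Transcript choice changed in 1196 genes with a threshold of 10 percentage points and in 307 with protein-coding transcripts only.

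With the replicate number as a term (replicate block) 4991 genes were higher in the dentate gyrus, 2856 were higher in the cerebellum, 7522 and 5220 transcripts were called and transcript choice changed in 315 genes. Same-numbered libraries deviated together with correlations of 0.05, 0.086 and 0.054, so the numbers were not taken as pairs.

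Genes near a log2 fold change of 0 changed sign, none of them called as genes. With counts scaled to transcript length the values were 0.74 for Arhgef2, 0.06 for Nfib and 0.39 for Syne1. With limma on TPM they were 0.82 for Arhgef2, 0.02 for Grin1, 0.14 for Nfib, 0.04 for Nptx1 and 0.47 for Syne1. Upper quartile normalization gave 0.03 for Grin1, 0.02 for Nfib and 0.02 for Nptx1. Plk5 was at -0.01 with sex as a term and at -0.03 with 12 libraries. On leaving out 1 library in turn the values ran from -0.06 to 0.02 for Grin1, -0.06 to 0.05 for Nfib, -0.06 to 0.07 for Nptx1, -0.01 to 0.18 for Plk5 and -0.07 to 0.33 for Satb1, and with the same features tested from -0.05 to -0.01 for Grin1, -0.07 to 0 for Nfib, -0.08 to 0.02 for Nptx1, -0.06 to 0.13 for Plk5 and -0.12 to 0.28 for Satb1.

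Calls of named genes at the 2-fold line were lost under some alternatives: Grik2, Kcnip4, Nrxn2, Phactr3 and Ascc2. Camk2b gained a call under some. The changed transcript choice of Rcan2 was lost with the batch 2 library of replicate 3 and on leaving out dentate replicate 3 or any cerebellar replicate. That of Synpo was lost on leaving out any dentate replicate, when Synpo-202 no longer passed the count filter. That of Syne1 was lost with protein-coding transcripts only, which leave out the retained-intron transcript Syne1-207. The cause of the other losses was not tested.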
